A study of Homo sapiens with 6 samples.

Results

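The 9 genes described here serve the presentation of peptides on MHC class I molecules, and they were chosen by name among the 33451 genes listed in the count table. They were HLA-B, HLA-C, HLA-E and HLA-F, B2M, TAP1, TAP2 and TAPBP, and NLRC5. mRNA was sequenced from MDA-MB-453, a human breast cancer cell line, after 5 days of culture. The experimental group (EG) received 100 nM 25(OH)D (25-hydroxyvitamin D, the circulating form of vitamin D) and the control group (CG) received 0.1% alcohol, the solvent, with 3 biological replicates in each group. Both groups came from this 1 unmodified line, so the values hold for 1 tumour's cells. The comparison asked how the mRNA of these genes differed after culture with 25(OH)D.

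MHC class I molecules display short peptides made inside the cell to CD8 T cells and are also read by natural killer cells. Each molecule is a heavy chain, encoded by an HLA gene, held together with the light chain beta-2 microglobulin. Peptides cut by the proteasome are pumped into the endoplasmic reticulum by the TAP1 and TAP2 transporter and loaded with the help of tapasin, the product of TAPBP. NLRC5 is the transactivator that binds, through promoter factors, to a shared control module of the class I genes, and interferons raise most genes of the pathway in epithelial and tumour cells.

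The 6 libraries held between 33268860 and 40928176 counts. Markers of epithelial and apocrine breast cells were present in every library, where 8 of them summed to between 4361 and 4552 CPM (counts scaled to a common library size). The 8 immune cell markers did not pass the low-count filter, none of them had more than 18 counts in a library, and their sum was at most 0.936 CPM. Of 6 stromal and endothelial markers only COL1A1, a fibrillar collagen gene, was tested, with a log2 fold change of -0.18 (edgeR adjusted p = 0.0320), and without CG replicate 1, CG replicate 2, EG replicate 1 or EG replicate 2 its adjusted p was 0.0984 to 0.123. The share of counts on mitochondrial genes was 7.85% to 7.99% in CG and 8.89% to 9.24% in EG, and its part in the values below was not tested.

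The 4 heavy chain genes are copies of one another, and their likeness bears on how reads are assigned. The reference coding sequences of HLA-B and HLA-C, in GENCODE 29 on GRCh38, shared 92.5% of 1086 aligned bases. For the other pairs of the 4 genes the identity was between 82.6% for HLA-E with HLA-F and 86.9% for HLA-B with HLA-E. The longest run that HLA-B and HLA-C had in common was 66 bases, shorter than a read of 150 bases. It lies in an exon of the minus strand, at chr6:31356301-31356366 in HLA-B and chr6:31271207-31271272 in HLA-C (GRCh38), and is shown as the longest stretch that does not tell the pair apart.
HLA-B and HLA-C: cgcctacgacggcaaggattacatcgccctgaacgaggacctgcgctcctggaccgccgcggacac

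The 60 coding bases in which the pair differed most are shown for contrast, with the 9 differing bases in capitals. In HLA-B they span a splice junction, with blocks at chr6:31355317-31355371 and chr6:31355219-31355223, and in HLA-C the blocks are chr6:31270210-31270264 and chr6:31270081-31270085, all on the minus strand of GRCh38.
HLA-B: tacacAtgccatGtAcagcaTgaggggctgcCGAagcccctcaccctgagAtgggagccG
HLA-C: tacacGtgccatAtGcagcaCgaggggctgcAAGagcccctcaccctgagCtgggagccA

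Transcript stretches were compared in the sense direction only. None of the 4 heavy chain genes had a stretch of 150 bases, the length of a read, also held by another annotated gene. Rows on the opposite strand were not part of this comparison, and they covered 542 bases of the HLA-B exons and up to 701 bases of the HLA-F exons. At 100 bases, HLA-B and HLA-F had none, HLA-C had 4 of 3176 stretches and HLA-E had 15 of 3056, all 15 of them held by HLA-G. At 50 bases the shared portion was 2.72% in HLA-B, 5.38% in HLA-C, 4.34% in HLA-E and 0.977% in HLA-F. B2M and NLRC5 shared no stretch of 50 bases with any gene. The reference holds 1 allele of each gene, the alleles of MDA-MB-453 were not typed here, and how reads fitting several genes were treated is not given in the sources used here, so the split of counts among HLA genes is less certain than their sum.

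**Figure D1:**
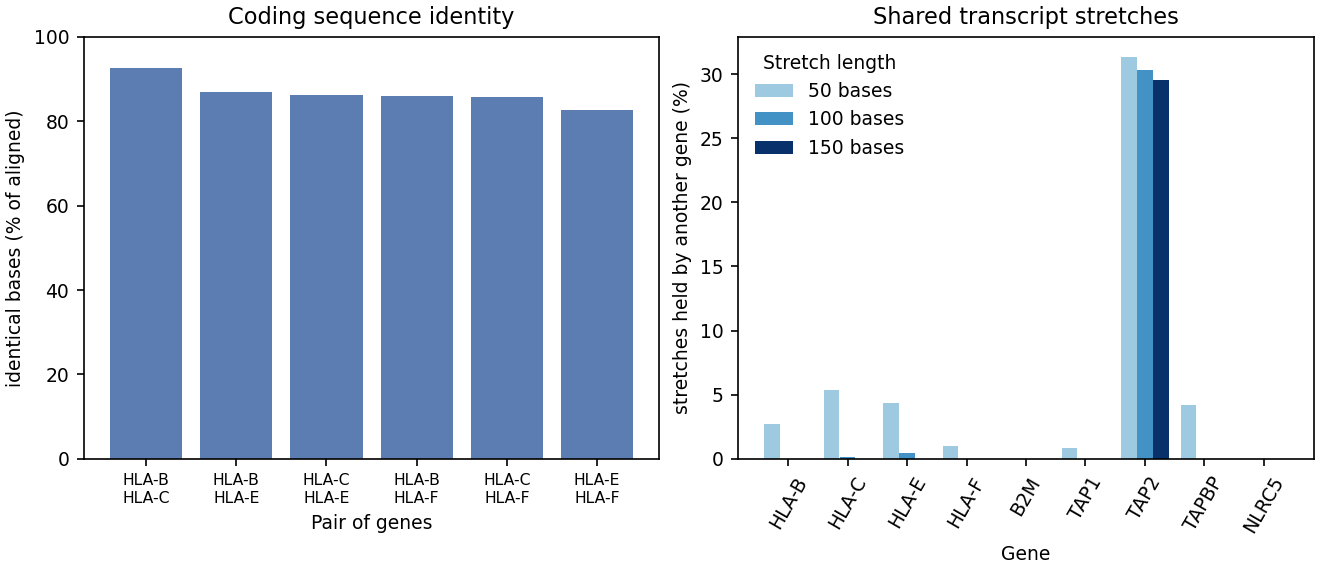
Sequence likeness of the class I genes in the reference. The left panel gives the identity of coding sequences, in percent of aligned bases, for the 6 pairs of heavy chain genes, with HLA-B and HLA-C the most alike at 92.5%. The right panel gives, for each gene, the percentage of transcript stretches of 50, 100 and 150 bases that another gene holds. Stretches were compared in the sense direction only, and only TAP2 shared stretches of 150 bases (29.5%).

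The windows before the transcription start were also read, because 8 of these genes changed in the same direction. Of 250 bases before each RefSeq start (GRCh38.p14), windows were found for 7 genes, which were HLA-B, HLA-C, HLA-F, B2M, TAP1, TAP2 and TAPBP. The windows of HLA-F, TAP1 and TAPBP lay inside the span of these genes in the count table, whose annotation starts farther upstream. They are not printed. Below, 209 bases are shown for 4 of the 7 genes, without the 41 bases next to the start. The 4 are the most abundant heavy chains, the light chain and a transporter subunit. Capitals mark interferon response letters (GAAA or GAA, then any 2 bases, then GAAA), a kappaB motif or a CCAAT box, on either strand. The windows are chr6:31357221-31357429 for HLA-B, chr6:31272134-31272342 for HLA-C and chr6:32838781-32838989 for TAP2, all on the minus strand, and chr15:44711267-44711475 on the plus strand for B2M.
HLA-B: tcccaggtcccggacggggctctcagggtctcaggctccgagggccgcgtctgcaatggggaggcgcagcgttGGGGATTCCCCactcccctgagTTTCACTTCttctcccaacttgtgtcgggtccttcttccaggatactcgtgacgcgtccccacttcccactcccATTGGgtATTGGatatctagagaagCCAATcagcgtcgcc
HLA-C: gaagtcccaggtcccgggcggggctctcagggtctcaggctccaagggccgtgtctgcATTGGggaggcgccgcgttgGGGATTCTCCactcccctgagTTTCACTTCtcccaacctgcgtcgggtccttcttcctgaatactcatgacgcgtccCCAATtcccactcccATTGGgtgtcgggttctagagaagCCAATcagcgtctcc
B2M: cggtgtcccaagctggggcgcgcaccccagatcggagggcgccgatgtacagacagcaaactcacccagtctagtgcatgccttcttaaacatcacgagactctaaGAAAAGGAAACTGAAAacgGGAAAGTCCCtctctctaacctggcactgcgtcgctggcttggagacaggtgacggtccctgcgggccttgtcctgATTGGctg
TAP2: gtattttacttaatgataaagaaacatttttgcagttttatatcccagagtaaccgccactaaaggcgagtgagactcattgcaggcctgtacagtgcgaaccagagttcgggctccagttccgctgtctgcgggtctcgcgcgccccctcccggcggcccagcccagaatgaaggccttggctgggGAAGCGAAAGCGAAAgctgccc

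The 209 bases of HLA-B and HLA-C were 92.2% identical over 205 aligned bases. The interferon-stimulated response element, searched here as GAAA, any 2 bases and GAAA on either strand, stood in the windows of B2M, HLA-F, TAP1, TAP2 and TAPBP and in 3.02% of 35116 windows of all genes. HLA-B and HLA-C held the shorter form with GAA in the first place, as did TAP2, where the match overlapped the longer motif, and 6.56% of all windows held it. Either pattern was found for 7 of 7 genes, counted by gene and not by window, and in 9.08% of all windows. The kappaB motif was found in B2M, HLA-B, HLA-C, TAP1 and TAPBP and in 5.21% of all windows. CCAAT was found in B2M, HLA-B, HLA-C, HLA-F and TAP1 and in 32.0% of all windows, and TGACG in B2M, HLA-B, HLA-C and TAP2 and in 21.2%. The DR3 vitamin D response element was found in no window of the 7 genes and in 0.202% of all windows. TAP1 had 2 windows, of which only the one farther upstream held these motifs. The motifs were chosen after the letters of these windows had been seen, and a match describes letters only.

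Culture with 25(OH)D was accompanied by higher mRNA of the heavy chains, the light chain and the transport genes. Of the 9 genes, 8 rose (edgeR adjusted p below 0.05), none fell, and only NLRC5 did not pass the test, where 17.3% of the 18183 genes tested rose and 16.5% fell. The 9 genes and the gene lists below were chosen with earlier results of these data known. Their counts beside those of all genes are therefore a description. At an unadjusted p below 0.05, 9 rose and 0 fell, and DESeq2 and limma each called 8 higher and 0 lower. The same 8 genes had every EG library above every CG library in CPM, as 22.8% of all tested genes did. The median log2 fold change was 0.73 over the 9 genes and -0.01 over all genes tested. None of the 9 exceeded a log2 fold change of 1, which 4.02% of all tested genes did with an unadjusted p below 0.05. Because the RNA came from bulk cultures, more cells expressing a gene and more RNA per cell cannot be told apart.

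**Figure D2:**
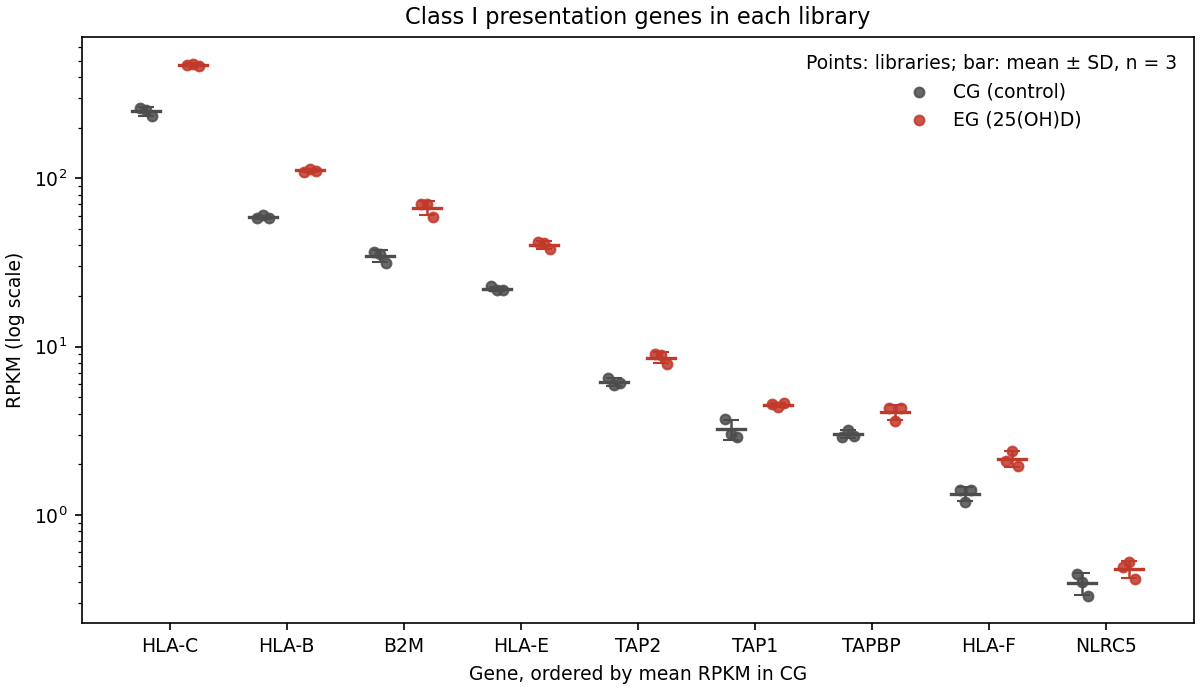
Level of each class I gene in each library, as RPKM (reads scaled by gene length and by library total) on a log axis, with genes ordered by their mean in CG. Points are the 6 libraries and bars are mean ± SD (n = 3). HLA-C lies highest and NLRC5 lowest in both groups, and only NLRC5 has overlapping groups.

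HLA-C, a classical heavy chain and a main ligand of inhibitory natural killer cell receptors, was the most abundant of these mRNAs. Its exons lie on chr6:31268749-31272130 of GRCh38, minus strand, in the class I region. It measured 648, 627 and 582 CPM in the CG libraries and 1211, 1216 and 1183 CPM in the EG libraries. The lowest EG library was well above the highest CG library. The means were 619 ± 33.7 and 1203 ± 18.0 CPM (SD, n = 3), with a log2 fold change of 0.96 (SE 0.0402, edgeR adjusted p = 2.01e-10).

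HLA-B, the classical heavy chain with the most alleles in people, lies beside it on chr6:31353872-31357188, minus strand. HLA-B was at 171, 178 and 174 CPM in CG and at 335, 347 and 342 CPM in EG. Replicates differed little in either group, and the groups did not overlap. The log2 fold change was 0.97 (SE 0.0371, edgeR adjusted p = 7.55e-11), and the ratio of the group means was 1.96. A pseudogene row on the opposite strand, XXbac-BPG248L24.12, covered 542 bases (18.0%) of the HLA-B exons. Its count was between 0.780 and 0.804 of that of HLA-B in every library and its log2 fold change was 0.98 (edgeR adjusted p = 1.25e-10).

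HLA-E, a heavy chain of low diversity that presents leader peptides of other class I molecules to NKG2A receptors, lies on chr6:30489467-30494205, plus strand. It measured 66.9, 63.6 and 63.6 CPM in CG and 126, 123 and 115 CPM in EG. EG replicate 3 was the lowest of its group and still above all CG libraries. HLA-E rose with a log2 fold change of 0.91 (SE 0.0493, edgeR adjusted p = 3.62e-09).

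HLA-F, a less abundant heavy chain that can reach the cell surface without peptide, lies on chr6:29722775-29738528, plus strand. In CG it was at 6.02, 5.12 and 6.08 CPM and in EG at 9.30, 10.6 and 8.65 CPM, from counts between 194 and 406. The groups did not overlap, and the spread within them was wider in proportion than for HLA-B. The log2 fold change was 0.73 (SE 0.119, edgeR adjusted p = 2.56e-04), and on log2(RPKM + 1) it was 0.43, since its RPKM was close to the pseudocount. Rows of HCG4P11 (701 bases), HLA-F-AS1 (535 bases) and RPL23AP1 (257 bases) overlapped its exons on the opposite strand, and HCG4P11 had a log2 fold change of 0.80 (edgeR adjusted p = 0.0204).

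Summed over the 4 genes, so that reads placed with the wrong one of them do not matter, the heavy chains measured 892, 874 and 825 CPM in CG and 1682, 1697 and 1648 CPM in EG. The log2 fold change of the sum was 0.96. Per length, HLA-C made up 75.3% ± 0.963 of the summed heavy chain RPKM in CG and 75.4% ± 0.160 in EG (SD, n = 3), and HLA-B made up 17.7% and 17.8%. The shares of HLA-E (6.64% and 6.41%) and HLA-F (0.404% and 0.344%) also overlapped between the groups, as did those of HLA-C and HLA-B.

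B2M, which encodes the light chain shared by all class I molecules, lies on chromosome 15 (chr15:44711477-44718877, plus strand), apart from the HLA genes. B2M measured 219, 213 and 189 CPM in CG and 436, 432 and 368 CPM in EG. Replicate 3 was the lowest library in each group, and the groups did not overlap. The means were 207 ± 16.0 and 412 ± 38.3 CPM (SD, n = 3), a ratio of 1.99, and the log2 fold change of 0.99 (SE 0.0657, edgeR adjusted p = 3.05e-08) was the largest of the 9 genes. Among all tested genes, 4.25% had a larger log2 fold change than B2M. The ratio of summed heavy chain RPKM to B2M RPKM was 9.67 ± 0.363 in CG and 9.45 ± 0.790 in EG (SD, n = 3), and the groups overlapped. The size of this ratio rests on annotated exon lengths, 6089 bases for B2M, and is no count of chains.

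TAP1 and TAP2, the subunits of the peptide transporter, and TAPBP, whose product tapasin bridges the transporter and empty class I molecules, also rose. All 3 lie in the MHC on the minus strand, TAP1 on chr6:32845209-32853978, TAP2 on chr6:32821833-32838780 and TAPBP on chr6:33299694-33314387.

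TAP1 was at 16.8, 13.7 and 13.2 CPM in CG and at 21.4, 20.2 and 21.6 CPM in EG. CG replicate 1 stood above the rest of its group but below every EG library. Its log2 fold change was 0.53 (SE 0.0923, edgeR adjusted p = 4.10e-04), and without CG replicate 1 it was 0.66. The antisense row PSMB8-AS1 covered 456 bases of its exons and had a log2 fold change of 0.54 (edgeR adjusted p = 0.0502).

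TAP2 was at 41.1, 37.1 and 38.7 CPM in CG and at 58.6, 57.7 and 51.4 CPM in EG. The groups did not overlap, and EG replicate 3 was again the lowest of its group. The log2 fold change was 0.52 (SE 0.0644, edgeR adjusted p = 1.99e-05). A row on the same strand, XXbac-BPG246D15.9, which joins TAP2 to a neighbouring gene, covered 2064 bases (32.3%) of the TAP2 exons. Its count was between 0.898 and 0.919 of that of TAP2, and its log2 fold change was 0.50 (edgeR adjusted p = 3.77e-05), so these rows are no independent measurements.

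TAPBP was at 14.5, 16.0 and 14.7 CPM in CG and at 22.4, 18.5 and 22.4 CPM in EG. EG replicate 2 was the lowest of its group and still above the CG libraries. Its log2 fold change was 0.49 (SE 0.0896, edgeR adjusted p = 7.00e-04).

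Whether the counting used strand was checked on genes lying wholly inside exons of another gene, the host, that was itself well covered by counts. At least 10 counts over the 6 libraries together were found for 294 of 306 such genes with the host on the opposite strand. Where strands matched, this held for 117 of 125 genes. Their median level per length was 0.600 and 0.664 of that of the host gene. In these counts, reads of a gene and of its antisense partner therefore could not be told apart, and the overlapping rows named above are not separate evidence for HLA-B, HLA-F, TAP1 or TAP2.

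NLRC5, the class I transactivator, was the least abundant of the 9 and the only one whose groups overlapped. It lies on chr16:56989485-57083531, plus strand. NLRC5 measured 5.42, 4.89 and 4.04 CPM in CG and 6.23, 6.58 and 5.31 CPM in EG, from counts between 149 and 253. EG replicate 3 lay below CG replicate 1. The log2 fold change of 0.33 (SE 0.143) had an unadjusted p of 0.0353 and an edgeR adjusted p of 0.0898. Without CG replicate 1 the log2 fold change was 0.44 (edgeR adjusted p = 0.0480) and without EG replicate 3 it was 0.43 (edgeR adjusted p = 0.0453), so whether NLRC5 passed depended on single libraries.

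Levels of different genes were compared per length. The length was that of all annotated exons merged, 6089 bases for B2M and 3012 for HLA-B, and not that of the mRNA expressed here. The order can therefore change with the gene model. In CPM, without length, B2M (207 in CG and 412 in EG) stood above HLA-B (174 in CG and 341 in EG). In both groups the order of mean RPKM was HLA-C, HLA-B, B2M, HLA-E, TAP2, TAP1, TAPBP, HLA-F and NLRC5. HLA-C was at 251 ± 14.8 RPKM in CG and 473 ± 9.62 in EG, and NLRC5 at 0.392 ± 0.0586 and 0.480 ± 0.0548 (SD, n = 3). Each gene was separated from the next in this order by all libraries of a group, except TAP1 and TAPBP in CG, at 3.23 ± 0.438 and 3.03 ± 0.172 RPKM. Together the 9 genes took 0.116% of all counts in CG and 0.216% in EG.

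Of the 15 RPKM ratios of a heavy or light chain gene to TAP1, TAP2 or TAPBP within a library, 13 were higher in every EG library than in every CG library. HLA-F over TAP1 and HLA-F over TAPBP overlapped between the groups. The 15 ratios reuse the same few genes and follow from the log2 fold changes given above, so they are not separate observations. How often ratios of other gene pairs separated the groups was not computed. The RPKM ratio of HLA-B to TAP1 was 15.5, 19.8 and 20.0 in CG and 23.8, 26.1 and 24.1 in EG. B2M over TAP2 was 5.58, 6.04 and 5.12 in CG and 7.82, 7.86 and 7.51 in EG. HLA-C over HLA-B (4.26 and 4.23) and TAP2 over TAP1 (1.93 and 1.90) overlapped between the groups. These ratios are given as descriptions, since with 3 libraries in each group the smallest p of a two-sided exact permutation test is 0.1.

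**Figure D3:**
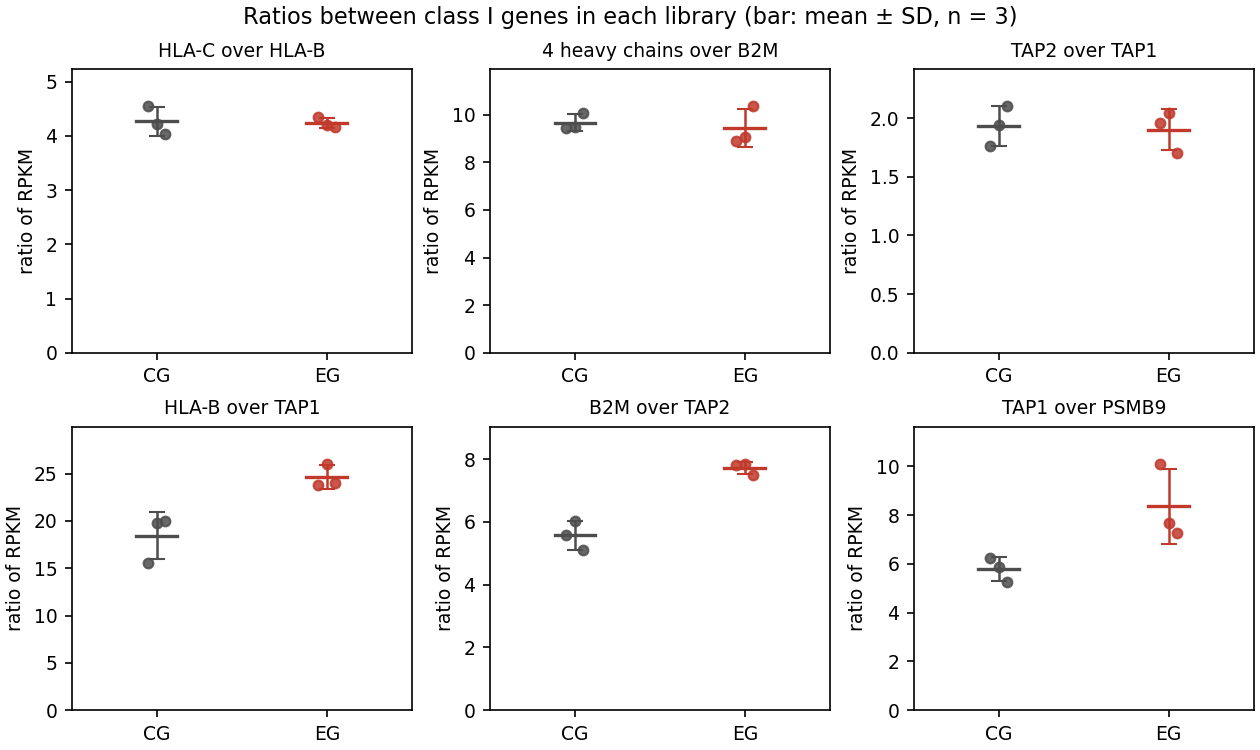
Ratios of RPKM between class I genes in each library, with bars for mean ± SD (n = 3) and axes from 0. In the upper panels (HLA-C over HLA-B, 4 heavy chains over B2M, TAP2 over TAP1) CG and EG overlap, and in the lower panels (HLA-B over TAP1, B2M over TAP2, TAP1 over PSMB9) every EG library lies above every CG library.

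A list of 11 genes for peptide loading and trimming held chaperones and aminopeptidases of the endoplasmic reticulum and the cytosolic peptidases THOP1 and TPP2. Of the 11, 6 rose and 1 fell, where 17.3% of all genes tested rose and 16.5% fell. The median log2 fold change of the list was 0.15. The lectin chaperones CANX and CALR, which hold the folding heavy chain, had log2 fold changes of 0.33 (edgeR adjusted p = 7.91e-07) and 0.15 (edgeR adjusted p = 0.00169). PDIA3, the disulfide isomerase bound to tapasin, rose by 0.31 on this scale (edgeR adjusted p = 1.06e-05), and BCAP31, HM13 and UGGT1 were the other genes that rose. ERAP2, an aminopeptidase that trims peptides to their final length, had a log2 fold change of -0.50 (edgeR adjusted p = 0.0145), and without EG replicate 3 it was -0.32 (edgeR adjusted p = 0.0508). ERAP1, the related aminopeptidase, was at 0.09 and TAPBPL, a tapasin relative that edits peptides, at 0.03, and neither passed the test.

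Of the 5 genes of the immunoproteasome and its activator, 3 rose, where 17.3% of all genes tested rose. PSMB8, a catalytic subunit encoded beside the TAP genes, rose with a log2 fold change of 0.51 (edgeR adjusted p = 2.30e-05), and the activator subunits PSME1 and PSME2 rose by 0.34 (edgeR adjusted p = 7.69e-06) and 0.29 (edgeR adjusted p = 2.95e-04). PSMB9, whose gene shares a promoter region with TAP1, was at 0.04 (SE 0.221, edgeR adjusted p = 0.919), and PSMB10 at 0.12 (edgeR adjusted p = 0.653). The RPKM ratio of TAP1 to PSMB9 was 6.25, 5.89 and 5.26 in CG and 10.1, 7.69 and 7.27 in EG, so the members of this head-to-head pair differed in level ratio without overlap between the groups.

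Of 9 genes for the factors that bind the shared promoter module of class I genes (the SXY module), edgeR called 0 higher and 3 lower, namely NFYA, NFYB and ATF1, which belong to the CCAAT and CRE binding factors. At an unadjusted p below 0.05 the counts were also 0 and 3, and DESeq2 called 0 higher and 2 lower and limma 0 and 3. Over all genes tested, edgeR called 17.3% higher and 16.5% lower. NFYB had a log2 fold change of -0.25 (edgeR adjusted p = 0.00301). RFX5, a subunit of the RFX complex that recruits NLRC5, was at 0.08 (edgeR adjusted p = 0.198), and CIITA, the class II transactivator, at -0.15 (edgeR adjusted p = 0.652).

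Of 14 genes of interferon signalling to class I genes, feedback inhibitors included, edgeR called 6 higher and 0 lower. The counts were the same at an unadjusted p below 0.05 and by DESeq2, and limma called 5 and 0. Of all genes tested, edgeR called 17.3% higher and 16.5% lower. The feedback inhibitor SOCS3 rose with a log2 fold change of 2.33 (edgeR adjusted p = 6.67e-07), and on log2(RPKM + 1) the value was 1.07. STAT2 and IRF9, partners in a transcription factor complex of type I interferon signalling, the receptor kinase JAK1 and the interferon gamma receptor chain IFNGR1 were among the genes that rose. IRF1, the interferon-induced factor that binds class I promoters, was at -0.06 (SE 0.170, edgeR adjusted p = 0.830), and TYK2, a receptor kinase, at -0.13 (edgeR adjusted p = 0.144).

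**Figure D4:**
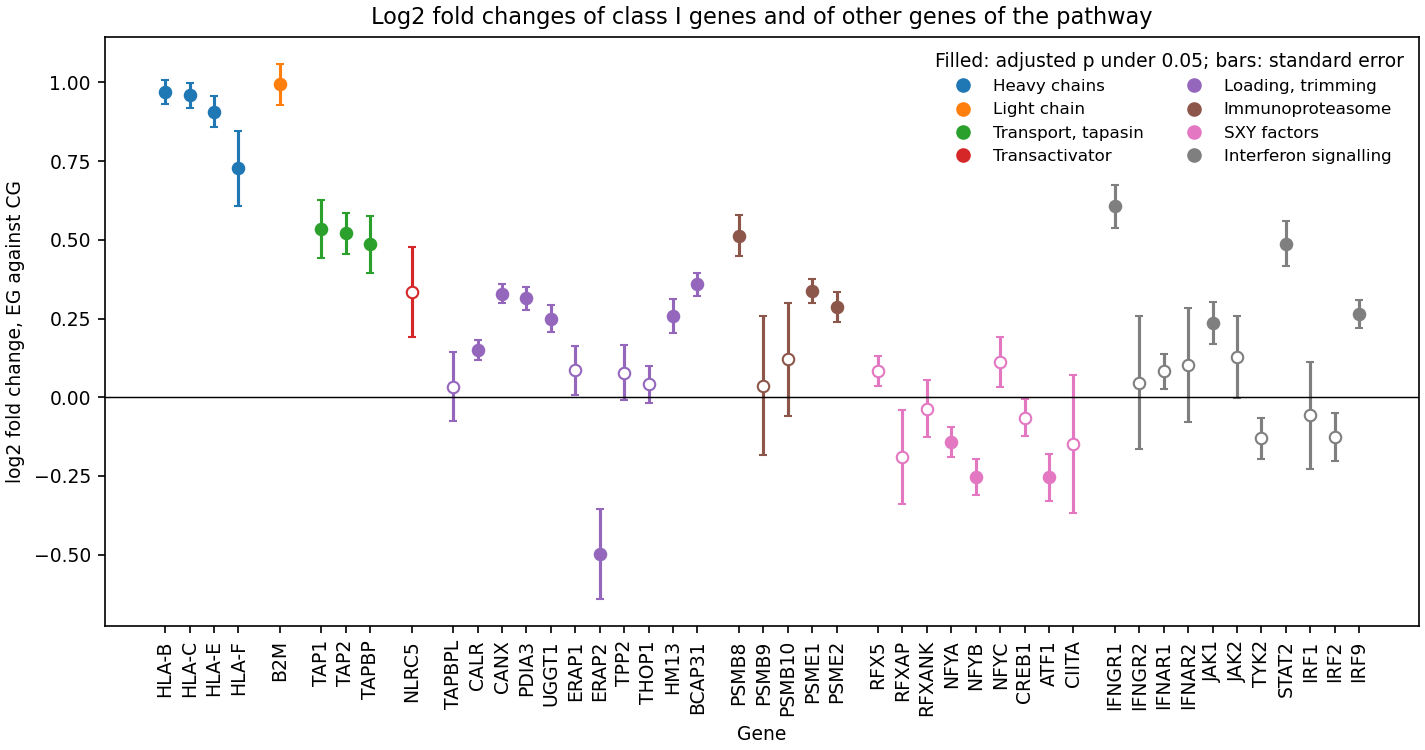
Log2 fold changes of EG against CG for the 9 class I genes and for the other genes of the pathway, with standard errors from edgeR. Filled points passed an adjusted p of 0.05 and open points did not, and the plot shows 11 of the 14 genes of the interferon list. Heavy and light chains lie between 0.73 and 0.99, the transport genes near 0.5, and PSMB9 and IRF1 near 0.

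The genes whose log2 CPM followed the members most closely over the 6 libraries are given as a description, since the libraries share the group difference. For B2M they were SCARB2 (Pearson r = 0.999), TYMP (0.998) and GS1-293C5.1 (0.998), and 1173 of 12702 genes with a mean of at least 100 counts had r of 0.95 or more. For TAP1 they were KLHL24 (0.996), EP300 (0.994) and CHCHD4 (0.994), with 325 such genes. For NLRC5 they were LMX1B (0.992), LIMD1 (0.990) and RP1-198K11.5 (0.985), with 56 such genes.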

How the data were processed

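MDA-MB-453 mRNA was sequenced by the authors as paired reads of 150 bases from a stranded mRNA library kit. The submitters' processing notes name Trimmomatic 0.36, featureCounts of Subread 1.5.1, edgeR 3.12.1 and GRCh38, and the aligner and annotation release are not given in the sources used here. The authors deposited whole-number counts per gene, without normalization, and a table of RPKM values. The deposited RPKM equalled the count divided by gene length and library total (largest relative difference 5.11e-15). Libraries were grouped by their labels, and all 6 columns were used.

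Counts were tested in R 4.3.3 with edgeR 4.0.16 (TMM, low-count filter with a minimum count of 10, quasi-likelihood test, two-sided, no covariate). P-values were adjusted by Benjamini-Hochberg over 18183 genes, and the biological coefficient of variation was 0.0788. CPM used TMM-scaled library sizes. In counts simulated for this comparison over 17883 genes, 95 of 100 genes with a log2 change of 1 and 68 of 100 with a change of 0.5 were recovered, and 8 unchanged genes were called. Depth limits precision for genes of low count, such as NLRC5. Alternatives were other normalizations, no filter, DESeq2 1.42.0, limma 3.58.1 on log2(RPKM + 1) and log2(RPKM + 0.1), a replicate block and leaving out each library.

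Coding sequences were aligned with Biopython 1.88 from GENCODE 29, and start windows came from RefSeq. The members and gene lists were chosen with earlier results of these data known. Text names all 9 members, the gene with the smallest p in each direction of each list, a set of pathway genes, and the 3 genes most like B2M, TAP1 and NLRC5. BCAP31, HM13, UGGT1, NFYA, ATF1, STAT2, IRF9, JAK1, IFNGR1, HFE, MICA, PROCR, THOP1 and TPP2 were named after their values were seen. Some genes of the lists are counted but not reported by name here.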

Additional observations from a re-analysis of the deposited data

How the results depend on the processing

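Under the 14 alternatives, 8 of the 9 class I genes were higher at an adjusted p of 0.05 and none was lower, except that 9 were higher without CG replicate 1 and without EG replicate 3, when NLRC5 passed. The number of genes higher in EG among all tested was between 2391 and 3298 and the number lower between 2349 and 3667. The summed heavy chains had a log2 fold change of 0.91 with library sizes alone and of 0.93 to 0.99 without 1 library. One member exceeded a log2 fold change of 1 with DESeq2-type size factors, with DESeq2, and without CG replicate 1, CG replicate 2 or EG replicate 3. On log2(RPKM + 1), HLA-F was at 0.43 and NLRC5 at 0.09.

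Over all tested genes, same-numbered replicates did not deviate together (r between -0.072 and -0.012), so the numbers were not read as pairs. Among the 9 class I genes, replicate 3 was the lowest library of its group for 5 genes in CG and for 6 in EG. With a replicate block, 3057 genes were higher and 2896 lower, and 8 of the 9 class I genes were higher. The block changed no call of a member.

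Among the other named genes, those that changed sign did not pass the test in either direction. With upper-quartile factors, library sizes alone, log2(RPKM + 1) and log2(RPKM + 0.1), PSMB9 was at -0.0049, -0.0071, -0.0029 and -0.012 and TAPBPL at -0.0076, -0.010, -0.0063 and -0.0085. Without 1 library, the log2 fold change ran from -0.063 to 0.16 for PSMB9, from -0.0093 to 0.099 for TAPBPL, from -0.0022 to 0.31 for CD74, from -0.32 to 0.095 for CIITA, from -0.30 to 0.21 for HLA-DMA, from -0.033 to 0.48 for HLA-H, from -0.19 to 0.14 for IRF1 and from -0.085 to 0.28 for PSMB10. The causes were not tested. ERAP2 and COL1A1 lost their calls under at least 1 alternative, ERAP2 also on log2(RPKM + 0.1) (limma adjusted p = 0.0599).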

Other observations

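Class I-like genes, which share the fold of the heavy chains but serve other functions, moved in both directions. Of 10 tested, 3 rose and 2 fell. Over all genes tested, 17.3% rose and 16.5% fell, so changes in both directions were not particular to this list. AZGP1, a secreted class I-like glycoprotein made by apocrine cells, had a log2 fold change of 1.04 (edgeR adjusted p = 8.13e-10). HFE, which pairs with beta-2 microglobulin and acts in iron balance, was at 0.91 (edgeR adjusted p = 1.80e-06), and MICA, a stress ligand of the NKG2D receptor, at 0.31 (edgeR adjusted p = 0.00282). ULBP1, another NKG2D ligand, fell, with a log2 fold change of -2.15 (edgeR adjusted p = 3.28e-07) and of -1.21 on log2(RPKM + 1), as did PROCR, the endothelial protein C receptor, at -1.47 (edgeR adjusted p = 0.00101).

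MHC class II genes and the near copies of the class I genes were low. Of 11 class II genes listed in the table, 5 passed the low-count filter and 0 were called by edgeR, also at an unadjusted p below 0.05, by DESeq2 or by limma, and their highest count in a library was 99. CD74, the invariant chain, was at 0.13 (edgeR adjusted p = 0.752), HLA-DMB at 0.67 (edgeR adjusted p = 0.210) and HLA-DMA at -0.07 (edgeR adjusted p = 0.859). HLA-DMB was at 0.17 without EG replicate 3 and at 0.40 without CG replicate 1, and at 0.12 and 0.40 on log2(RPKM + 1) and log2(RPKM + 0.1). Of HLA-G and 9 class I pseudogenes listed, 4 passed the filter with counts of at most 141, and HLA-G itself did not pass, and 0 of these 4 were called by edgeR, also at an unadjusted p below 0.05, by DESeq2 or by limma. HLA-H was at 0.22 (edgeR adjusted p = 0.515) and HLA-L at -0.35 (edgeR adjusted p = 0.393). HLA-L was at -0.13 without CG replicate 1, at -0.11 without EG replicate 1, at -0.58 without EG replicate 3 and at -0.08 on log2(RPKM + 1).

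Among the 8 epithelial and apocrine markers, 4 rose and 3 fell, where 17.3% of all genes tested rose and 16.5% fell. GATA3, a luminal transcription factor, fell, with a log2 fold change of -0.80 (edgeR adjusted p = 8.56e-10).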
